A study of Mus musculus with 6 samples.

Results

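Heat shock proteins and J-domain chaperones were followed in the hippocampus of mice of 63 weeks, in 3 transgenic animals that the labels call HGPS and 3 wildtype animals. The letters usually stand for Hutchinson-Gilford progeria, a syndrome of early ageing that arises from changes in LMNA, which encodes the nuclear lamina protein lamin A. All 6 animals shared age and tissue, and the labels give neither strain, sex, the transgene's promoter nor the cells in which it is active. RNA of each animal was hybridised to 1 Affymetrix array, and precision is limited by how few arrays there are. No label says outright that the replicates came from different mice, and p-values measure only the spread between these 6 samples. The members were all genes with a probe of a single symbol whose name marks them as a heat shock protein (Hspa to Hspe, or Hsp90) or as a J-domain protein (Dnaja, Dnajb, Dnajc), without the endoplasmic reticulum chaperones Hspa5, Hsp90b1 and Dnajb9. This gave 54 genes of the 14860 genes with such a probe, 17 named as heat shock proteins and 37 as J-domain proteins. Several well known members, among them Hspa8, Hsp90ab1, Hspb1, Hspd1 and Hspe1, were not analysed here, since no probe used here carried their symbol alone.

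HSP70 proteins bind short hydrophobic stretches of unfolded proteins and release them in a cycle driven by ATP. J-domain proteins bring clients to HSP70 and stimulate its ATPase, nucleotide exchange factors end the cycle, and HSP90 acts later on more folded clients. Small heat shock proteins hold misfolded proteins without ATP. The heat shock factor HSF1 induces many of these genes when unfolded proteins accumulate, by binding inverted repeats of the unit GAA in their promoters. In neurons J-domain proteins also serve the synapse, where they act on vesicle proteins and strip clathrin from vesicles.

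The promoters of the genes on which the results turn are shown first, from 250 bases before to 50 bases after the gene's start, as RefSeq gives them in GRCm38.p6, 5′ to 3′. Hspb6, Hspb7 and Hspb8 are the small heat shock protein genes whose transgenic and wildtype levels differed most, Dnajc19 is the member with the smallest p, and Hspa1a is the classical stress-inducible HSP70 gene. Capitals mark each match to GAANNTTC or TTCNNGAA, the smallest inverted repeat that can form part of a heat shock element. Both motifs read the same on either strand and may overlap each other.
Hspb6, chr7:30553051-30553350, plus strand: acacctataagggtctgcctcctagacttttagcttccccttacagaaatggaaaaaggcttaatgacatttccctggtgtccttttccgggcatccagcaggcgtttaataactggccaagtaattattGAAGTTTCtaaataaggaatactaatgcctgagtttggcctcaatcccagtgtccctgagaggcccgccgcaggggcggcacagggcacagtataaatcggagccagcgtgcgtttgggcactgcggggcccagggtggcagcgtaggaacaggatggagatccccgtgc
Hspb7, chr4:141420529-141420828, plus strand: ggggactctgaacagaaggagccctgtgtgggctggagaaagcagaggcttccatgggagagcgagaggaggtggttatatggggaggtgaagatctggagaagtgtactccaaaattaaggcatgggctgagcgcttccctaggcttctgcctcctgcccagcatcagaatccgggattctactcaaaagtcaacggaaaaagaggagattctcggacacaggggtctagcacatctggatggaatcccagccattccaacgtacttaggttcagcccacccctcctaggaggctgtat
Hspb8, chr5:116422815-116423114, minus strand: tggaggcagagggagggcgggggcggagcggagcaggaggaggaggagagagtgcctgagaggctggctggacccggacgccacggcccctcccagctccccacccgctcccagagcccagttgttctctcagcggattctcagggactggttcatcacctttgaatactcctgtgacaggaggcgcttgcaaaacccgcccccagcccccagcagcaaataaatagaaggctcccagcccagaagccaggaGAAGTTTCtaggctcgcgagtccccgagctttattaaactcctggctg
Dnajc19, chr3:34081305-34081604, minus strand: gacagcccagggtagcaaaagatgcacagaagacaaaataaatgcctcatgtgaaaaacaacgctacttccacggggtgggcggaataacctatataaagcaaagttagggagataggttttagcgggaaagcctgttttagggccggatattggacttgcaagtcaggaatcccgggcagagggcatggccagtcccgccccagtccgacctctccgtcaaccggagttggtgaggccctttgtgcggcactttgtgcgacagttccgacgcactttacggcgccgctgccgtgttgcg
Hspa1a, chr17:34972107-34972406, minus strand: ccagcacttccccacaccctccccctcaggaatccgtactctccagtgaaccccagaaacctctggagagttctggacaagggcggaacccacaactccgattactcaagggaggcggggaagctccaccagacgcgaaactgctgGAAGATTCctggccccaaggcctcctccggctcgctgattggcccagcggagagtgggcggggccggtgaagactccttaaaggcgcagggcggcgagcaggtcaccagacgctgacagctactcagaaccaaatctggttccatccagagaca
The table holds a further start of Hspb6 whose window has no match. Of the 54 members, 42 had at least 1 promoter in the table, and 10 of their 56 promoters held a match (17.9%), against 15.1% of all 32851 promoters. Those 10 promoters belonged to 10 genes, namely Dnaja1, Dnaja4, Dnajb4, Dnajc5g, Dnajc10, Dnajc27, Hspa1a, Hspb3, Hspb6 and Hspb8. An array of 3 alternating units was found in 0 of the 56 member promoters and in 0.603% of all promoters. Outside the members such an array lay in the promoters of Hsph1 and Chordc1, both well known HSF1 targets. A match is a description of these letters and not a site.

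No member passed a false discovery rate of 10% in transgenic against wildtype hippocampus. In limma with Benjamini-Hochberg adjustment over all 14996 probes with a single symbol, 7 probes passed (0.0467%), and the lowest adjusted p among the members was 0.431. An unadjusted p under 0.05 was reached by 7 members, which were Dnajc19, Hspb7, Dnajc18, Hspb6, Hspbap1, Hspb8 and Hspa2. All 7 were at the higher level in transgenic animals. They make up 13.0% of the members, against 5.81% of all probes with such a p that were higher, 4.8% that were lower, and 10.6% in either direction. The transgenic group lay wholly above the wildtype group in 6 members (Dnajc19, Hspb7, Hspbap1, Hspa2, Hspa12b and Dnaja4), against 9.14% of all probes, and wholly below it in 1, Dnajc2, against 8.55%. For groups of 3 against 3 without overlap an exact permutation test (two-sided) gives p = 0.1, the smallest p that this test can give here. The smaller p-values of limma rest on its model of the variance.

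The median log2 difference over the 54 members was 0.04, with 31 members above 0 and 23 below, while the median over all probes tested was -0.00. The 95% interval of the difference lay inside 2-fold in either direction for 53 of the 54 members, against 98.3% of all probes, and inside 1.5-fold for 50 members, against 91.9% of all probes. The exception at 2-fold was Dnajc17, and Dnajc5b, Hspb6 and Hspb8 joined it at 1.5-fold. For 22 members the interval lay inside 1.2-fold, as it did for 44.4% of all probes. The mean level of the members ran between 4.18 and 11.11 on the log2 scale, and 11 of them belonged to the dimmest 33.3% of probes, where differences are generally compressed. Even so, the lowest differences of all members, -0.45 in Dnajc17 and -0.32 in Dnajc5b, came from such dim probes and had wide intervals.

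**Figure D1:**
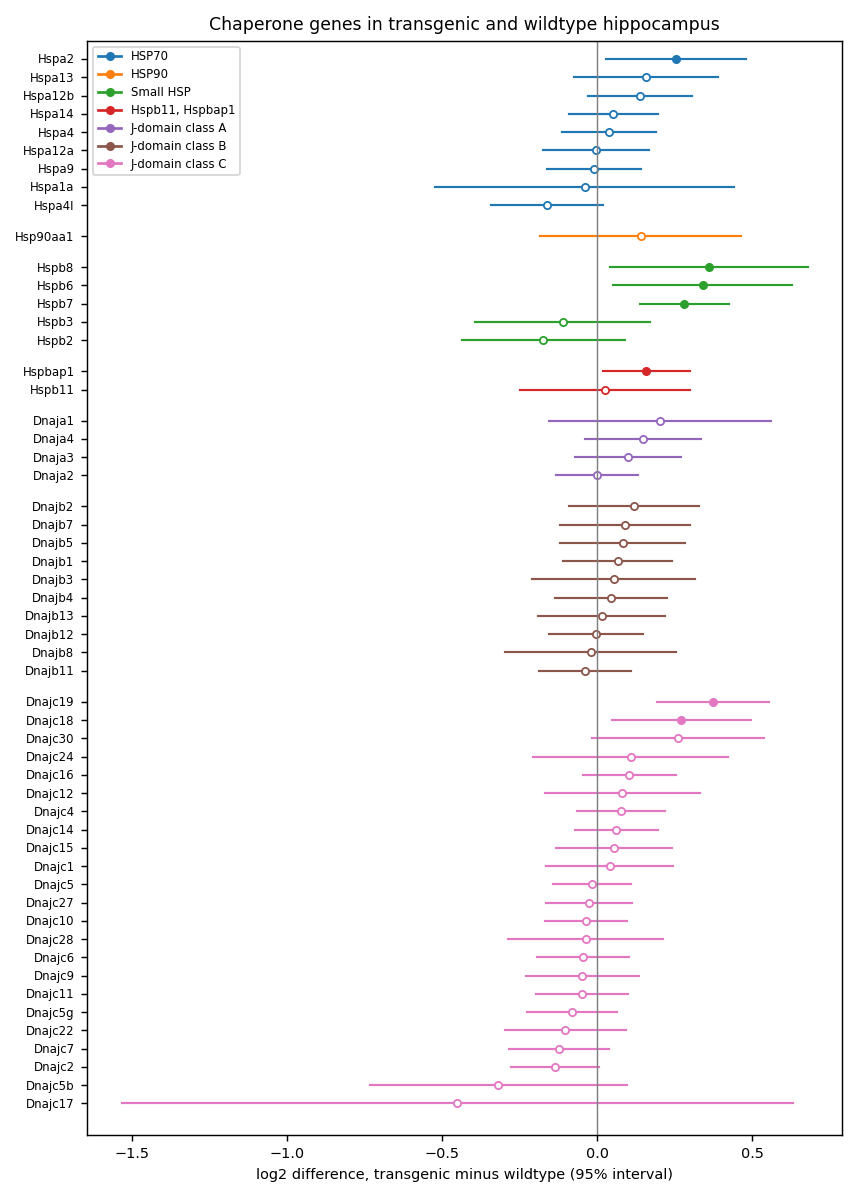
Log2 difference of each of the 54 members, transgenic minus wildtype, with limma's 95% interval, ordered within role groups (n = 3 animals per group). Filled points have an unadjusted p under 0.05: all 7 lie above 0, and 3 of the 5 small heat shock protein genes are among them.

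The arrays themselves bear on several of the results below. Averaged over Eif2s3y and Kdm5d, both on the Y chromosome, the log2 level was 4.67, 4.78 and 4.70 in the transgenic animals, against 4.63, 8.41 and 8.45 in wildtype replicates 1, 2 and 3. Y-linked transcripts were thus high in wildtype replicates 2 and 3 alone, as they are in male animals, though no label gives the sex. This signal was unbalanced between the genotypes. Its part in a group difference cannot be fully told apart from that of the genotype. All 8 markers of hippocampal neurons were well expressed, at mean levels between 8.68 and 13.61, and none of them had an unadjusted p under 0.05. Of 7 measured immediate early genes, which neurons switch on with activity, all were above 0 and 5 had an unadjusted p under 0.05. Relative to the 6-array mean they averaged 0.17, 0.12 and 0.22 in the transgenic animals, against -0.34, 0.00 and -0.17 in the wildtype animals, and their part in the members' values was not tested. In bulk tissue, fewer cells of a type and less RNA per cell cannot be told apart. No label gives a batch.

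Among the small heat shock proteins, several of which are abundant in muscle, 3 of the 5 measured genes reached an unadjusted p under 0.05, all on the higher side, but not the false discovery rate. Of all probes 5.81% had such a p on the higher side and 10.6% in either direction. The median log2 difference of the 5 was 0.28. Hspb7, best known from heart muscle, had a log2 level of 6.32, 6.45 and 6.40 in the transgenic animals, against 6.10, 6.08 and 6.15 in the wildtype animals. Every transgenic animal lay above every wildtype animal, on a dim probe whose spread within groups was small. Transgenic minus wildtype, this was a log2 difference of 0.28 ± 0.06 (SE, n = 3 per group, limma adjusted p = 0.431), a ratio of 1.21.

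Hspb6, also called HSP20, an abundant protein of smooth and striated muscle, had 8.83, 8.69 and 8.80 in the transgenic animals, against 8.71, 8.23 and 8.36 in wildtype replicates 1, 2 and 3. The groups overlapped, because wildtype replicate 1 lay above the lowest transgenic animal. The log2 difference of 0.34 ± 0.12 (SE, n = 3 per group, limma adjusted p = 0.433) was 0.07 after adjustment for Y-linked signal and 0.06 without wildtype replicates 2 and 3. Markers of smooth muscle and pericytes were also lowest in those arrays: relative to the 6-array mean, the 8 measured genes averaged 0.30, 0.28 and 0.17 in the transgenic animals and 0.16, -0.46 and -0.44 in wildtype replicates 1, 2 and 3. All 8 were above 0 in their group difference and 4 had an unadjusted p under 0.05. Acta2, the actin of smooth muscle, had 10.74, 10.71 and 10.55 in the transgenic animals, against 10.51, 8.83 and 8.60 in the wildtype animals. Markers of meninges and fibroblasts averaged 0.25, 0.42 and 0.22 in the transgenic animals, against 0.20, -0.52 and -0.57 in the wildtype animals, with 8 of 8 above 0. Markers of choroid plexus and ependyma, 8 of 8 above 0 with a median log2 difference of 0.68, averaged 0.52, -0.17 and 0.58 in the transgenic animals, against 0.46, -0.51 and -0.88 in the wildtype animals. The part of these cells in the level of Hspb6 was not tested.

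Hspb8, also called HSP22, which works with the co-chaperone Bag3 to send misfolded proteins to autophagy, had 7.997, 8.352 and 8.547 in transgenic replicates 1, 2 and 3, against 8.012, 7.849 and 7.958 in the wildtype animals. Transgenic replicate 1 lay within the wildtype range and the other transgenic animals lay above it. The log2 difference was 0.36 ± 0.14 (SE, n = 3 per group, limma adjusted p = 0.440), and it was 0.24 without transgenic replicate 3 and 0.51 without transgenic replicate 1. Its partner Bag3 had 8.39, 8.38 and 8.63 in the transgenic animals, against 8.30, 8.25 and 8.32 in the wildtype animals. In Bag3 the groups did not overlap, and its log2 difference was 0.18 ± 0.08 (SE, limma adjusted p = 0.491).

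The remaining small heat shock protein genes lay below 0 without reaching an unadjusted p under 0.05. Hspb2 had a log2 difference of -0.17 ± 0.11 and Hspb3 of -0.11 ± 0.12 (SE, limma adjusted p = 0.585 and 0.740). Hspb2 is the immediate neighbour of Cryab, which encodes the small heat shock protein alpha B-crystallin of astrocytes, oligodendrocytes and muscle, and their annotated spans overlap. Cryab had 10.97, 10.87 and 11.08 in the transgenic animals, against 10.86, 10.68 and 10.84 in the wildtype animals. Its log2 difference of 0.18 ± 0.08 (limma adjusted p = 0.486) thus had the opposite sign to that of Hspb2, and the difference between the neighbours was not tested. Hspb11, a subunit of ciliary transport rather than a chaperone, differed by 0.03 ± 0.12. Hspbap1, named for its binding to Hspb1, had 7.79, 7.72 and 7.82 in the transgenic animals, against 7.63, 7.64 and 7.58 in the wildtype animals. These groups were separate, at a log2 difference of 0.16 ± 0.06 (SE, n = 3 per group, limma adjusted p = 0.440).

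**Figure D2:**
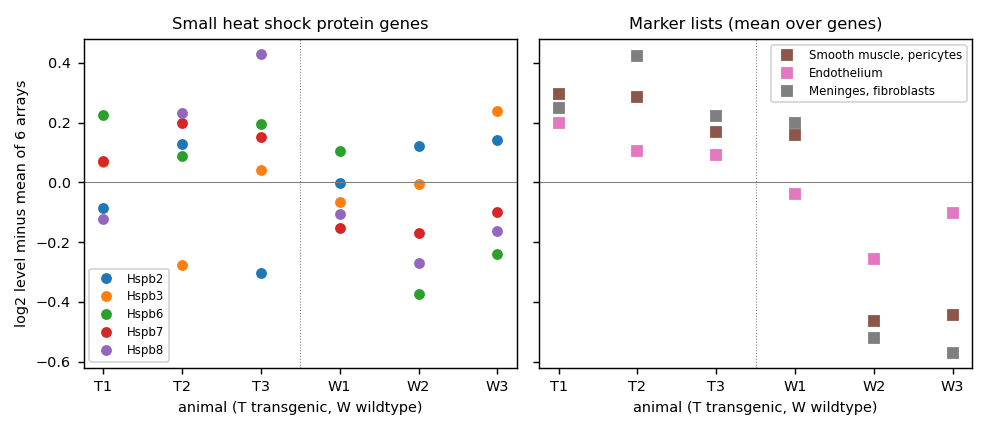
Log2 level minus the mean of the 6 arrays in each animal, for the 5 small heat shock protein genes (left) and as the mean over the genes of 3 marker lists (right). Hspb6 has its lowest values in wildtype replicates 2 and 3, where the lists of smooth muscle and of meninges are also lowest, whereas Hspb7 is low in all 3 wildtype animals and Hspb8 is highest in transgenic replicates 2 and 3.

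Of the 9 measured HSP70 family genes 1 had an unadjusted p under 0.05 and was higher (11.1%, against 5.81% of all probes that were higher and 10.6% in either direction). The median log2 difference of the 9 was 0.04. That gene was Hspa2, an HSP70 most abundant in testis that the brain also expresses. It had 9.003, 9.265 and 9.363 in the transgenic animals, against 8.954, 8.944 and 8.974 in the wildtype animals. The groups did not overlap, but transgenic replicate 1 lay next to the wildtype animals, which differed among themselves by an SD of 0.02. Transgenic minus wildtype, this was a log2 difference of 0.25 ± 0.10 (SE, n = 3 per group, limma adjusted p = 0.441), and 0.18 without transgenic replicate 3.

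Hspa1a, the stress-inducible cytosolic HSP70, had 6.54, 6.57 and 7.08 in the transgenic animals, against 6.52, 7.17 and 6.62 in the wildtype animals. A single animal in each group stood above the others of its group, transgenic replicate 3 and wildtype replicate 2, and the log2 difference was -0.04 ± 0.20 (SE, n = 3 per group, limma adjusted p = 0.952). The near-identical copy Hspa1b can share probes with Hspa1a, so the values may hold both genes. The sign of the difference depended on the animals used, with 0.16 without wildtype replicate 2 and -0.21 without transgenic replicate 3.

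Hspa9, or mortalin, the mitochondrial HSP70, differed by -0.01 ± 0.06, with a 95% interval from -0.16 to 0.14. Hspa4 and Hspa4l, relatives that act as nucleotide exchange factors for HSP70, differed by 0.04 ± 0.06 and -0.16 ± 0.08 (limma adjusted p = 0.838 and 0.504). In Hspa4l the transgenic animals had 8.86, 8.97 and 8.75, against 8.94, 9.05 and 9.08 in the wildtype animals, so that only transgenic replicate 2 overlapped with the wildtype range. Hspa12b, a distant relative found in endothelium, differed by 0.14 ± 0.07 (limma adjusted p = 0.527) with non-overlapping groups, while all 7 endothelial markers were above 0 with a median log2 difference of 0.27. These markers averaged 0.20, 0.10 and 0.09 in the transgenic animals, against -0.04, -0.26 and -0.10 in the wildtype animals, and their part in Hspa12b, whose difference was 0.07 after adjustment for Y-linked signal, was not tested. Hspa12a and Hspa14 differed by -0.00 ± 0.07 and 0.05 ± 0.06, and Hspa13, of microsomes, by 0.16 ± 0.10, or 0.05 without transgenic replicate 3. Hsp90aa1, the inducible cytosolic HSP90, was read by a probe at a mean level of 4.18, the lowest of all members, and its log2 difference was 0.14 ± 0.14.

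Among the 37 J-domain genes, 2 had an unadjusted p under 0.05, both higher. This is a share of 5.41%, against 5.81% of all probes that were higher and 10.6% in either direction. The median log2 difference of the 37 genes was 0.04. Class A proteins, which resemble bacterial DnaJ along their whole length, had a median log2 difference of 0.12 over 4 genes. Class B and class C had medians of 0.05 over 10 genes and -0.03 over 23 genes. The differences between the classes were not tested.

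Dnaja1, the main class A partner of cytosolic HSP70, had 8.08, 8.08 and 8.62 in the transgenic animals, against 8.01, 8.18 and 7.98 in the wildtype animals. Transgenic replicate 3 stood apart while the other transgenic animals lay within the wildtype range, and the log2 difference was 0.20 ± 0.15 (SE, n = 3 per group, limma adjusted p = 0.636), or 0.02 without transgenic replicate 3. Dnaja2 was at 10.31 ± 0.02 in transgenic and 10.31 ± 0.04 in wildtype animals (mean ± SD, n = 3 each), a log2 difference of -0.00 ± 0.06. Dnaja4 differed by 0.15 ± 0.08 and Dnaja3, a mitochondrial J-domain protein, by 0.10 ± 0.07.

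Of the class B genes none had an unadjusted p under 0.05. Dnajb1, the J-domain protein most strongly tied to the heat shock response, had 8.12, 8.03 and 8.19 in the transgenic animals, against 7.94, 8.11 and 8.09 in the wildtype animals. The groups overlapped, at a log2 difference of 0.07 ± 0.07 (SE, n = 3 per group, limma adjusted p = 0.751). Dnajb2, which is enriched in neurons and delivers ubiquitinated clients to the proteasome, differed by 0.12 ± 0.09. The brightest class B probes, those of Dnajb4, Dnajb5 and Dnajb12, differed by 0.04 ± 0.08, 0.08 ± 0.09 and -0.01 ± 0.06. Dnajb11, a luminal chaperone of the endoplasmic reticulum, differed by -0.04 ± 0.06. Dnajb3, Dnajb7 and Dnajb8, known chiefly from testis, and the ciliary protein gene Dnajb13 had log2 differences between -0.02 and 0.09.

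In class C, Dnajc19 had the smallest p of all members. It encodes a subunit of the motor that pulls proteins across the inner mitochondrial membrane and stimulates the mitochondrial HSP70 there. The transgenic animals had 8.27, 8.36 and 8.48, against 8.02, 8.06 and 7.91 in the wildtype animals. Every transgenic animal exceeded every wildtype animal. The log2 difference was 0.37 ± 0.08 (SE, n = 3 per group, 95% interval 0.19 to 0.55, limma adjusted p = 0.431), a ratio of 1.30. It was 0.35 after adjustment for Y-linked signal, and between 0.32 and 0.42 when any 1 array was left out.

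Of the other genes tied to mitochondrial import, only Hspa9, Dnajc15, Grpel1 and Grpel2 were looked at here, and their differences were smaller in size. The partner HSP70 gene Hspa9 is given above. Dnajc15, a relative of Dnajc19, differed by 0.05 ± 0.08, and the nucleotide exchange factor genes Grpel1 and Grpel2 differed by -0.01 ± 0.07 and -0.16 ± 0.08 (limma adjusted p = 0.964 and 0.504). Over the 7 measured mitochondrial members the median log2 difference was 0.05. Dnajc30, a protein of mitochondria, had 10.16, 10.33 and 10.58 in the transgenic animals, against 10.19, 9.95 and 10.14 in the wildtype animals, with overlapping groups and a log2 difference of 0.26 ± 0.12 (limma adjusted p = 0.485). This was 0.15 without transgenic replicate 3 and 0.17 after adjustment for Y-linked signal.

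Dnajc18 had 9.56, 9.35 and 9.45 in the transgenic animals, against 9.35, 9.06 and 9.14 in wildtype replicates 1, 2 and 3. Wildtype replicate 1 lay at the level of transgenic replicate 2. The log2 difference of 0.27 ± 0.10 (SE, n = 3 per group, limma adjusted p = 0.433) was 0.11 after adjustment for Y-linked signal and 0.10 without wildtype replicates 2 and 3.

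**Figure D3:**
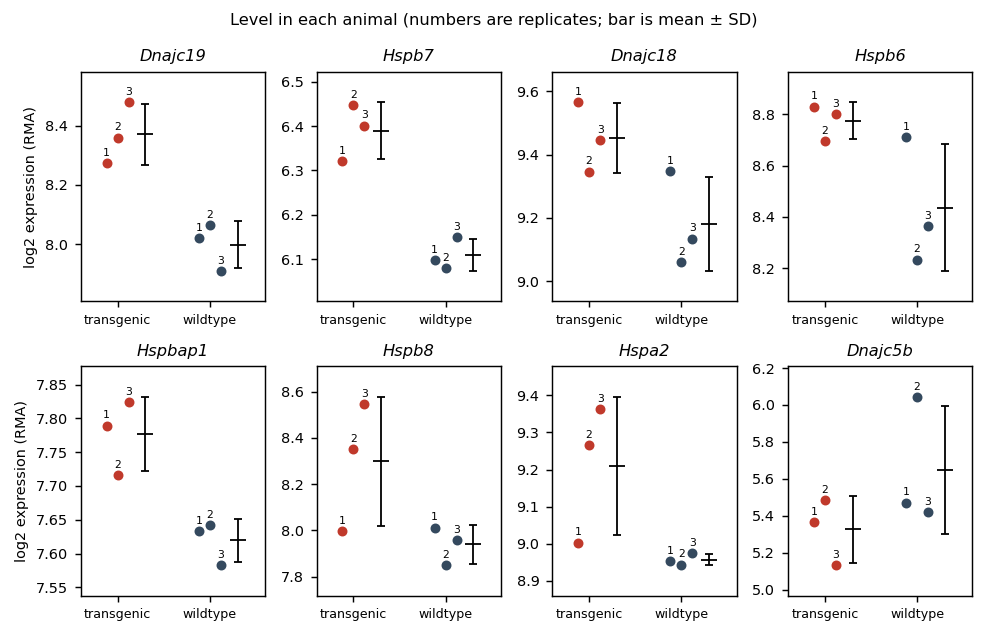
Log2 expression of the 7 members with an unadjusted p under 0.05 and of Dnajc5b in each transgenic and wildtype animal, with the mean ± SD of each group. Dnajc19, Hspb7, Hspbap1 and Hspa2 have no overlap between the groups, wildtype replicate 1 is closest to the transgenic animals in Dnajc18 and Hspb6, and in Dnajc5b wildtype replicate 2 stands above all others.

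The measured J-domain proteins of the synapse gave narrow intervals around 0. Dnajc5, or cysteine string protein, which keeps vesicle fusion proteins folded at nerve endings, had 10.70, 10.72 and 10.69 in the transgenic animals, against 10.71, 10.71 and 10.74 in the wildtype animals. The groups overlapped and the log2 difference was -0.02 ± 0.05, with a 95% interval from -0.14 to 0.11. Dnajc6, or auxilin, which recruits HSP70 to strip clathrin from vesicles, differed by -0.05 ± 0.06 (95% interval -0.20 to 0.10). The dim relative Dnajc5g differed by -0.08 ± 0.06.

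Of the members lower in transgenic animals, Dnajc2 was the only 1 whose groups did not overlap. It is part of the complex that receives new proteins at the ribosome. It had 7.98, 7.93 and 7.97 in the transgenic animals, against 8.10, 8.04 and 8.17 in the wildtype animals. Transgenic minus wildtype, this was a log2 difference of -0.14 ± 0.06 (SE, n = 3 per group, limma adjusted p = 0.478), while Hspa14, whose protein is its partner there, is given above. A dimmer probe of Dnajc2 with a mean level in the lowest range of the array differed by 0.05 ± 0.13. Dnajc7, which binds HSP70 and HSP90 through repeats, differed by -0.12 ± 0.07 with 9.05 in wildtype replicate 1 just under the highest transgenic animal at 9.07. Its difference was -0.08 without wildtype replicate 2 and -0.03 after adjustment for Y-linked signal.

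The 12 class C genes not described otherwise, from Dnajc1 to Dnajc28, had log2 differences between -0.10 in Dnajc22 and 0.11 in Dnajc24, and their groups overlapped. Among them Dnajc11, of the mitochondrial outer membrane, differed by -0.05 ± 0.06.

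Dnajc17, a protein of the spliceosome, varied more among the transgenic animals than any other member. It had 5.34, 3.50 and 3.57 in transgenic replicates 1, 2 and 3, against 4.76, 4.40 and 4.60 in the wildtype animals. The transgenic animals thus lay on both sides of the wildtype range, on a probe among the dimmest of the table. The log2 difference was -0.45 ± 0.46 (SE, n = 3 per group, limma adjusted p = 0.728), and it was -1.05 without transgenic replicate 1 (limma adjusted p = 0.141).

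Chromosome 3 holds 4 members. It also holds a run of 20 measured neighbours from Mtfr1 to Pld1, whose ends were set with the values known, and all had lower levels in the transgenic animals, with a median log2 difference of -0.44. In limma 14 of the 20 had an unadjusted p under 0.05, against 10.6% of all probes. The 7 probes that passed the false discovery rate of 10% all lay in this run. The next 4 genes after Pld1 were also below 0, between -0.21 and -0.07, so that 24 consecutive genes lay below 0. Dnajc5b, a relative of cysteine string protein, lies inside this run between Pde7a and Crh. It had 5.36, 5.49 and 5.13 in the transgenic animals, against 5.47, 6.04 and 5.42 in wildtype replicates 1, 2 and 3. Wildtype replicate 2 stood above the transgenic range, the other wildtype animals lay within it, and the probe is dim. Transgenic minus wildtype, this was a log2 difference of -0.32 ± 0.18 (SE, n = 3 per group, limma adjusted p = 0.550), -0.12 without wildtype replicate 2 and -0.15 after adjustment for Y-linked signal.

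Dnajc19 lies 29 measured genes beyond Pld1, and Hspa4l lies 53 beyond it. The 10 measured genes around Dnajc19, 5 on each side, had log2 differences between -0.28 and 0.02 with a median of -0.08, so that Dnajc19 at 0.37 lay above each of them. The 10 around Hspa4l had a median of 0.07 and ran from -0.42 to 0.22, with 4 below 0. The lowest was Plk4, the next gene, which lay below Hspa4l at -0.16. Dnajb4 lies far from the run.

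**Figure D4:**
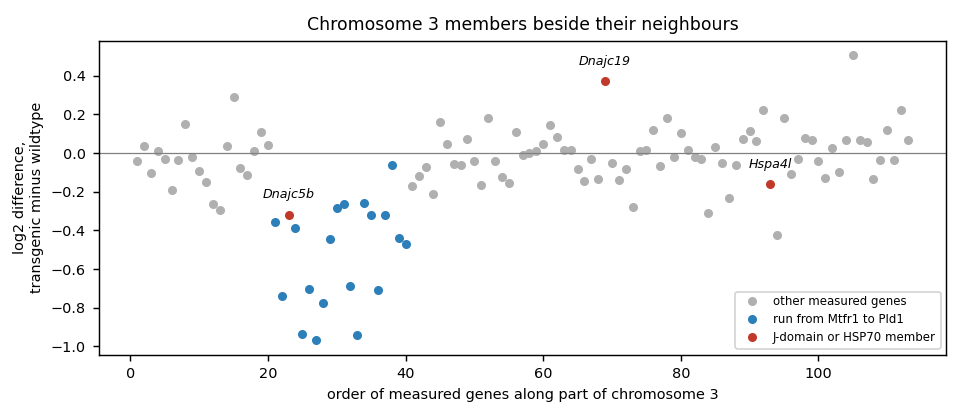
Log2 difference, transgenic minus wildtype, of measured genes in their order along part of chromosome 3 (gene order of GRCm38.p6). Dnajc5b at -0.32 lies inside the run of 20 genes from Mtfr1 to Pld1, and Dnajc19 at 0.37 lies above its neighbours outside it.

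Many members had their highest value in the same animal. Transgenic replicate 3 was the highest of the 6 arrays in 26 of the 54 members (48.1%), against 27.7% of all genes. This held for 6 of 9 HSP70 genes and for 9 of 14 class A and B J-domain genes, and for 8 of 23 class C genes. Differences between these shares were not tested. The median of the members relative to the 6-array mean was 0.10 in transgenic replicate 3, -0.01 and -0.00 in transgenic replicates 1 and 2, and -0.02, -0.00 and -0.04 in the wildtype animals. For all genes the median in transgenic replicate 3 was 0.02. Without transgenic replicate 3 the median log2 difference of the members was -0.00, and 2 members, Dnajc19 and Hspb7, had an unadjusted p under 0.05. The cause of the higher level in this animal was not tested.

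**Figure D5:**
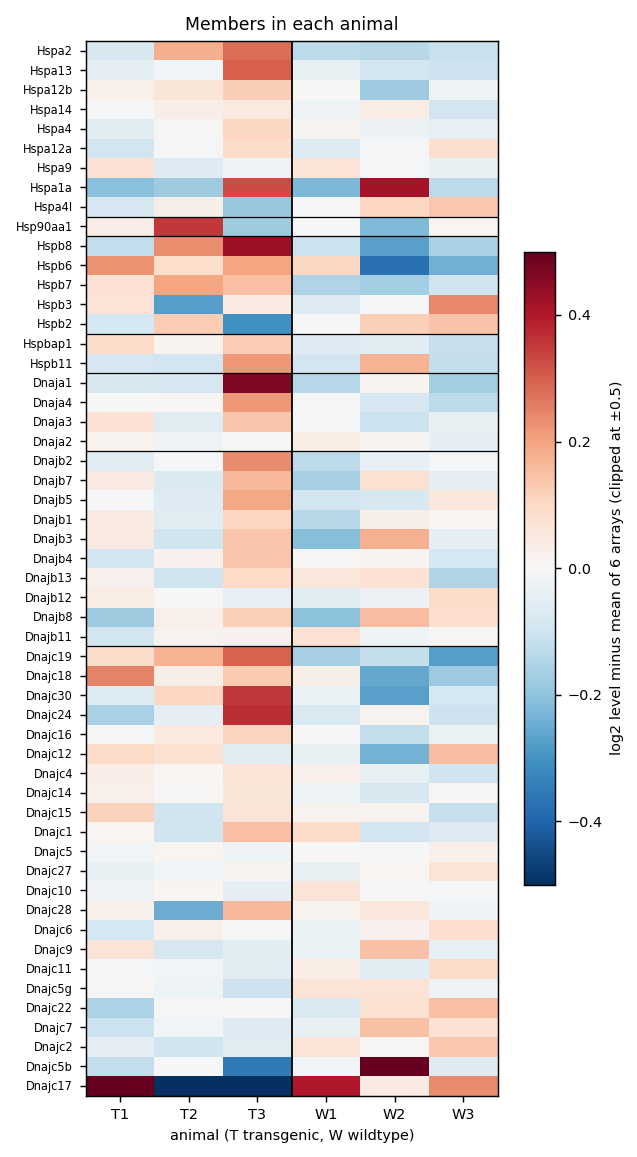
Log2 level of each of the 54 members in each animal, minus the mean of the 6 arrays, with transgenic animals (T) left of wildtype animals (W) and lines between role groups. Transgenic replicate 3 holds the highest value of 26 members, among them 6 of 9 HSP70 genes, 9 of 14 class A and B and 8 of 23 class C J-domain genes.

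Of 12 listed family genes known to be induced by HSF1, 6 were measured, and their median log2 difference was 0.10. Of these, 4 were above 0 (66.7%, against 49.9% of all probes), namely Hspb8 at 0.36, Dnaja1 at 0.20, Hsp90aa1 at 0.14 and Dnajb1 at 0.07. Below 0 were Hspa1a at -0.04 and Hspa4l at -0.16. Both the median and the count include Hsp90aa1, whose probe at a mean level of 4.18 may not read its gene well. A single gene, Hspb8, had an unadjusted p under 0.05 and was higher. It makes up 16.7% of so short a list, against 5.81% of all probes that were higher and 10.6% in either direction. Relative to the 6-array mean these 6 genes averaged -0.07, 0.05 and 0.16 in transgenic replicates 1, 2 and 3, against -0.10, 0.01 and -0.05 in the wildtype animals. Their medians were -0.08, -0.01 and 0.22 in the transgenic animals, against -0.12, 0.02 and -0.06 in the wildtype animals. Hsp90aa1, whose probe is the dimmest of the members, stood at 0.35 in transgenic replicate 2. Transgenic replicate 1 lay within the wildtype range by mean and by median, and transgenic replicate 2 by median only. The 10 members whose promoters held an inverted repeat had a median log2 difference of 0.01, and the 32 members with a promoter that held none had 0.05. For 12 members there was no promoter. This split rests on exact matches of letters, so it does not sort genes by HSF1 binding, and the difference between the medians was not tested.

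Of 58 listed chaperone genes outside the name rule 49 were measured, and 0 passed a false discovery rate of 10% in limma. An unadjusted p under 0.05 was reached by 2 on the higher side (4.08%, against 5.81% of all probes). On the lower side it was reached by 0, against 4.8% of all probes. The median log2 difference of the 49 genes was 0.01. Stub1, the ubiquitin ligase that acts on clients of HSP70 and HSP90, had 9.34, 9.38 and 9.48 in the transgenic animals, against 9.27, 9.25 and 9.23 in the wildtype animals. The groups were separate, at a log2 difference of 0.15 ± 0.06 (SE, n = 3 per group, limma adjusted p = 0.465). The other gene was Hspa5, the HSP70 of the endoplasmic reticulum, at 0.17 ± 0.07 (limma adjusted p = 0.470). Hsph1, the nucleotide exchange factor of cytosolic HSP70 and an HSF1 target with an array of 3 units in its promoter, differed by -0.06 ± 0.06. Chordc1, whose promoter also holds such an array, differed by -0.08 ± 0.09 (limma adjusted p = 0.766). The factor genes Hsf2 and Hsf4 differed by -0.05 ± 0.10 and 0.08 ± 0.07. The 12 measured subunits of the chaperonin TRiC and of prefoldin had a median of 0.01, with Pfdn2 at -0.21 ± 0.11 as the gene of smallest p. Transgenic replicate 3 was the highest array in 26 of these 49 genes, against 27.7% of all genes.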

How the data were processed

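Log2 expression values per probe were deposited for 6 Affymetrix arrays. RMA (background correction, normalization between arrays, summary of probes) is the authors' tool for these log2 values and mm8 the build, per the submitters' processing notes. The version of RMA and the probe filters are unknown here. Of 23332 probes, GEO's platform annotation gave 1 symbol for 14996 and several for 1019, and 7317 are unnamed here. All 54 members matched a RefSeq table of GRCm38.p6, used for names and gene order only, and promoters came from RefSeq's windows of the same build.

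Transgenic and wildtype arrays were compared in R 4.3.3 using limma 3.58.1 (lmFit, eBayes, two-sided, no covariate) over the 14996 probes, with Benjamini-Hochberg adjustment and the series' false discovery rate of 10%. The fit was tested on simulated data of independent, normally distributed values with the same SD in both groups. Such data lack the differences in Y-linked signal and cell markers between these arrays, so the test does not cover them. The highest-mean probe stood for a gene. Alternatives changed normalization, probe filters, variance moderation, covariates and the arrays used. Members, lists and alternatives were chosen with earlier results of these data known. Named were the 10 members of smallest p in each direction, measured HSP70, HSP90 and small heat shock protein genes, HSF1-induced members, the 3 brightest of each J-domain class, members near the run on chromosome 3 and the gene of smallest p in each pathway list. Any other gene was named with its values in view. Protein motifs were not analysed here.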

Additional observations from a re-analysis of the deposited data

How the results depend on the processing

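No member passed a false discovery rate of 10% under any of the 15 alternatives run in limma, and the lowest adjusted p of a member was 0.114, for Hspb6 without wildtype replicate 1. The number of members with an unadjusted p under 0.05, 7 in the comparison as reported, was 2 after adjustment for Y-linked signal, 2 without wildtype replicates 2 and 3, between 2 and 7 when a single array was left out, 8 after further quantile normalization, 8 without the dimmest probes, and 9 with trended and robust moderation. It was 2 without transgenic replicate 3 or wildtype replicate 3 and 3 without wildtype replicate 2. The median log2 difference of the members was between -0.00 and 0.06 when a single array was left out, and between 0.03 and 0.05 under the other alternatives. The cause of these changes was not tested. Fits with the Y-linked signal or without both arrays that carry it rest on wildtype replicate 1, which is assumed to vary like the other animals.

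Over the alternatives in which each was fitted the 7 members with an unadjusted p under 0.05 kept their sign, with log2 differences from 0.32 to 0.42 for Dnajc19, 0.25 to 0.34 for Hspb7, 0.13 to 0.19 for Hspbap1, 0.18 to 0.36 for Hspa2, 0.24 to 0.51 for Hspb8, 0.10 to 0.35 for Dnajc18 and 0.06 to 0.48 for Hspb6. The replicate numbers were not shown to pair the animals: deviations of same-numbered arrays correlated at 0.23, 0.15 and 0.02. Those of differently numbered arrays correlated at between -0.25 and 0.09. For each transgenic array the same-numbered wildtype array had the highest value, and whether the animals were paired was not tested. With the replicate number as a block 7 members had an unadjusted p under 0.05 (6 higher, 1 lower), 0 passed the false discovery rate and the median was 0.04, while 0 of all probes passed. Over all probes, where 7 passed as reported, 103 passed without wildtype replicate 1, 12 with trended and robust moderation, and 0 with unannotated probes included, after adjustment for Y-linked signal, or without transgenic replicate 1 or 2, wildtype replicate 2 or 3, or both of these wildtype arrays. The second probe of Dnajc2, averaged with the first, gave -0.04 in place of -0.14.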
